A study of Homo sapiens with 48 samples.

Results

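The HOX genes encode the homeodomain transcription factors of the 4 human HOX clusters, HOXA on chromosome 7, HOXB on chromosome 17, HOXC on chromosome 12 and HOXD on chromosome 2. They were taken by symbol, as every gene named HOX, a cluster letter from A to D and a number. GENCODE 29 names 39 such genes, and 35 of them were among the 14685 genes of the count tables. These were 11 genes of HOXA, 9 of HOXB, 8 of HOXC and 7 of HOXD. HOXB1, HOXC5, HOXD1 and HOXD12 were not analysed here.

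HOX genes are numbered by their place along the cluster, and genes with the same number in different clusters are paralogues. In the embryo the low numbers are used at the head end and the high numbers toward the tail, the ends of the limbs and the urogenital tract. The proteins bind DNA together with TALE cofactors of the PBX and MEIS families. Polycomb complexes keep the clusters silent, Trithorax complexes keep them active, and retinoic acid is a known activator. Cell lines can keep a HOX pattern related to their tissue of origin.

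RNA was sequenced from HEK293T cells, a human embryonic kidney line labelled wild type and epithelial-like. In the study's methods, all cells were transiently transfected with a plasmid for NCBP1, a nuclear cap-binding protein, fused to Halo, so the controls carried the plasmid too. T-REX cells received the photocaged probe Ht-PreHNE(alkyne), which binds Halo, and then light, which frees the reactive lipid 4-hydroxynonenal (HNE) beside NCBP1. The controls were light alone, probe alone without light, and DMSO without probe or light. For light alone, the methods text lists the probe as well as light, so as written that arm cannot be told apart from T-REX, and here it is named as the labels name it. Each of the 4 arms was harvested at 3, 6 and 12 h with 4 biological replicates, which gave 48 libraries.

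Totals ran from 23952455 to 37099535 counts per library. Of 7 HEK293T marker genes in the tables, all had counts in every library, given as CPM (counts scaled to a common library total), from KRT8 at 4.39 to 10.4 CPM up to IRS4 at 367 to 727 CPM. PAX2, the other marker, was not in the tables. Of 16 genes of blood, fibroblast, endothelial, liver and keratinocyte cells, COL1A1 was the only one in the tables, at 2.13 to 6.07 CPM. The DMSO library of replicate 3 at 12 h stood apart most, with a median correlation of 0.983 with the other libraries of its time, and T-REX replicate 3 at 3 h was next at 0.985. NCBP1, whose counts join the plasmid and the cell's own gene, took 5.42 to 6.56% of counts in T-REX libraries at 12 h, 5.41 to 7.53% with probe alone, 3.60 to 5.07% with light alone and 3.09 to 4.18% with DMSO. At 3 h its share was 5.85 to 8.99% under T-REX and 4.56 to 6.10% with DMSO, and at 6 h 6.52 to 8.04% and 4.83 to 6.07%. NCBP1 thus moved with the T-REX against DMSO comparisons, and its part in the HOX values was not tested.

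The HOX genes of these cells spanned a wide range of levels. In CPM per kilobase of exon, a scale that allows genes to be set side by side, the median member stood at 4.17 over the 12 DMSO libraries. On the same scale the median over all 14556 genes with an annotated length was 5.04. By cluster the median was 5.91 in HOXA, 3.67 in HOXB, 4.05 in HOXC and 2.70 in HOXD. Members numbered 9 to 13 had a median of 5.91 and members numbered 1 to 8 a median of 3.72. Each of the 35 members in the tables had counts in every library, with the lowest count being 20 and the highest 5116. HOXB1, HOXC5, HOXD1 and HOXD12 have no level here, so whether any HOX gene was silent in these cells cannot be told. The 12 DMSO libraries pool 3, 6 and 12 h, and 23 of 35 members rose with DMSO from 3 to 12 h. The SDs and ranges below therefore include change with time as well as spread between replicates.

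HOXD13, the last gene of its cluster and a factor of digit development, was the highest of all 35 at 57.6 ± 10.1 CPM per kilobase (SD, n = 12). HOXD10 followed within HOXD at 24.3 ± 3.87. HOXD3 at 1.70 ± 0.290 and HOXD4 at 1.09 ± 0.238 were the lowest of that cluster. The DMSO ranges of HOXD13, HOXD10, HOXD11 and HOXD8 did not overlap in that order, whereas those of HOXD8, HOXD9, HOXD3 and HOXD4 overlapped from each gene to the next.

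In HOXA, HOXA5 was highest at 25.6 ± 3.98 and HOXA9, a factor of blood stem cells, next at 16.8 ± 2.38. HOXA7 at 3.23 ± 0.318 and HOXA4 at 0.972 ± 0.269 were lowest. HOXA5, HOXA9, HOXA6 and HOXA13 overlapped from each to the next. A gap without overlap followed, below which HOXA10, HOXA11, HOXA3 and HOXA2 again overlapped in turn, and HOXA4 lay apart at the bottom, below HOXA7.

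Within HOXB, HOXB9 stood at 28.5 ± 5.56 and HOXB2, a factor of the hindbrain, at 8.75 ± 1.74. HOXB8 at 2.32 ± 0.589 and HOXB4 at 1.84 ± 0.418 were lowest. HOXB9 lay above HOXB2 and HOXB3, and these lay above HOXB6, HOXB7, HOXB13, HOXB5, HOXB8 and HOXB4, which overlapped in turn. HOXC spanned the narrowest range of levels, with HOXC4 at 6.12 ± 0.759 and HOXC8 at 5.99 ± 1.33 on top and HOXC11 at 1.86 ± 0.311 and HOXC12 at 0.806 ± 0.241 lowest. Its order ran HOXC4, HOXC8, HOXC13, HOXC10, HOXC6, HOXC9, HOXC11 and HOXC12, and the gap to HOXC12 was the only place where neighbours did not overlap. Of 31 neighbour pairs in the 4 clusters, 23 had overlapping DMSO ranges over the pooled times. Overlap within a single time was not counted.

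Many members share sequence with another annotated gene. In GENCODE 29, exons of 16 of the 35 members overlap another gene on the same strand, 18 overlap a gene on the opposite strand, and 12 overlap none. HOXB3 shares exon bases with HOXB4 and HOXB6, HOXC4 with HOXC6, and HOXD10 with HOXD11. HOXA13 is crossed by the antisense RNA HOTTIP and HOXA10 by HOXA10-AS. The strand setting of the counting is not given in the sources used here, so reads from such pairs cannot be told apart. HOXD13 overlaps no other gene.

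The results below turn most on 4 members, whose positions are those of GENCODE 29 on GRCh38. HOXA13 (ENSG00000106031), a factor of the hand, foot and genital tract, lies at chr7:27193503-27200106 on the minus strand. HOXD13 (ENSG00000128714) lies at chr2:176092891-176095938 on the plus strand. HOXA10 (ENSG00000253293), a factor of the uterus and the lower spine, lies at chr7:27170591-27180261 on the minus strand. HOXB3 (ENSG00000120093), a factor of the hindbrain, lies at chr17:48548870-48604912 on the minus strand.

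HOXA13 and HOXD13 are paralogues, and the 250 bases before their RefSeq starts (GRCh38.p14) are shown because these genes lead the comparisons at 3 h. The HOXD13 window is chr2:176092471-176092720 on the plus strand and the HOXA13 window is chr7:27200092-27200341 on the minus strand. Both are written 5′ to 3′, and capitals mark exact matches on either strand to the TATA box (TATAAA), the CCAAT box (CCAAT), the GC box (GGGCGG) or the E-box (CACGTG).
HOXD13: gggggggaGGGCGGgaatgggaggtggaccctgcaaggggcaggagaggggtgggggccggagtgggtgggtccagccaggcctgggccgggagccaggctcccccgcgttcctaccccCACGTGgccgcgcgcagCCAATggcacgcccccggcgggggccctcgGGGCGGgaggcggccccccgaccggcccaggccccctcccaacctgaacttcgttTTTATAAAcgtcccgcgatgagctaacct
HOXA13: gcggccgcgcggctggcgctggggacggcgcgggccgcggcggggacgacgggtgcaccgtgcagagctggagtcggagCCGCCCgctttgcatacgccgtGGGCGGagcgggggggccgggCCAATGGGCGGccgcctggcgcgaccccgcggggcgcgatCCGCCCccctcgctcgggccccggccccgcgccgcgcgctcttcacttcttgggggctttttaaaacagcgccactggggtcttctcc

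The windows are rich in G and C, 74% in HOXD13 and 78% in HOXA13, and the median over all 35116 RefSeq promoters was 58%. CG dinucleotides numbered 21 and 40, against a median of 11 over all promoters. Over 27 HOX promoters the medians were 19 CG dinucleotides and 58.8% G and C. The letters GGGCGG, the GC box, occurred in both windows and in 42.6% of all promoters. CCAAT occurred in both and in 32% of all. The HOXD13 window also held TATAAA at 27 bases before the start, found in 10.7% of all promoters, with a second match on the other strand that overlaps it. CACGTG, the E-box, lay in the HOXD13 window and in 6.34% of all promoters. Of 27 promoters listed for 20 HOX genes, 18 held the CCAAT box, 13 the GC box, 8 the E-box and 5 the TATA box. The letters TTTATG, a core bound by CDX factors, were in 3 of the 27 and in 9.64% of all promoters. Promoters of 1 gene can overlap, so these 27 are not independent, and a match is a description of the letters.

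The question asked of each time was whether HOX transcripts differed between T-REX and its 3 controls. The 3 comparisons of a time share the T-REX libraries. A gene was called at an adjusted p of at most 0.05 in edgeR's quasi-likelihood test, adjusted over all genes tested, and log2 fold changes are T-REX minus control. CPM values below are scaled by library total and TMM factor over all 48 libraries.

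At 3 h the members called were all lower under T-REX, and they were HOXA9, HOXA13 and HOXD13. Against light alone 1 of 35 was called lower, against a background of 0.116% of all genes called lower. Compared with probe alone it was 1 of 35, with a background of 0.810%. Compared with DMSO it was 3 of 35, with a background of 4.54%. HOXA13 and HOXD13, called in 2 comparisons each, are paralogues of number 13. In bulk RNA a lower value from fewer cells using a gene and one from less RNA per cell cannot be told apart. The other paralogues of this number, HOXB13 and HOXC13, were not called in any T-REX comparison.

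HOXA13 stood at 36.8, 36.8, 45.5 and 41.2 CPM in the T-REX libraries of replicates 1 to 4 at 3 h. With light alone it was 45.97, 51.1, 52.7 and 48.5 CPM, with probe alone 51.8, 58.3, 54.6 and 53.5 CPM, and with DMSO 57.0, 57.5, 54.5 and 55.2 CPM. All T-REX libraries lay below every control library. The log2 fold change of HOXA13 was -0.43 (SE 0.070, edgeR adjusted p = 0.00675) against probe alone and -0.48 (SE 0.070, adjusted p = 0.00104) against DMSO. Against light alone HOXA13 had a value of -0.31 (SE 0.070) with an adjusted p of 0.0667. Both calls held when any library of the arms compared was left out. The call of HOXA13 against probe alone was lost (adjusted p = 0.0977) when only these 2 arms were fitted.

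HOXD13 was even across the T-REX libraries of 3 h, at 85.8, 86.9, 83.1 and 84.5 CPM. With light alone it was 103, 116, 118 and 95.0 CPM, with probe alone 99.98, 108, 95.9 and 103 CPM, and with DMSO 114, 113, 116 and 107 CPM. Again no control library reached down to the T-REX range. The log2 fold change of HOXD13 was -0.35 (SE 0.063, edgeR adjusted p = 0.0155) against light alone and -0.40 (SE 0.063, adjusted p = 0.00132) against DMSO. Against probe alone it was -0.24 (SE 0.063) with an adjusted p of 0.0624. The call of HOXD13 against DMSO held without any 1 library. Against light alone it was lost without T-REX replicate 2 or light alone replicates 2 or 3 (adjusted p = 0.0543 to 0.0941), and in the fit of these 2 arms only (0.265).

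HOXA9 was called at 3 h only against DMSO, with a log2 fold change of -0.32 (SE 0.070, edgeR adjusted p = 0.0111), and this held without any 1 library. It had 37.4, 33.6, 38.5 and 32.8 CPM under T-REX and 45.8, 43.3, 42.5 and 46.5 CPM with DMSO, with no overlap. Without T-REX replicate 3, 2 members in place of 1 were called against light alone, and 2 in place of 1 against probe alone. The other members went both ways. Larger in size than the HOXA13 value, but not called, were HOXB8 at 0.65 (SE 0.31, adjusted p = 0.241), HOXB5 at 0.58 (SE 0.28, adjusted p = 0.242) and HOXD3 at 0.49 (SE 0.19, adjusted p = 0.121), and HOXC4 was at 0.40 (SE 0.14, adjusted p = 0.0907). By cluster the median was -0.09 in HOXA, 0.16 in HOXB, 0.12 in HOXC and 0.01 in HOXD. The median log2 difference over the 35 members was 0.01 against DMSO, where all genes had a median of 0.03, and 16 of the 35 values were negative. Within the clusters, 1 of 8 HOXC members and 9 of 11 HOXA members were negative in that comparison. With the 2 deposited factors of unwanted variation as covariates, 5 members were called higher and 3 lower against DMSO, while the fit without them called 0 higher and 3 lower. The same covariates gave 1 member higher and 4 lower against light alone, and 1 higher and 4 lower against probe alone. Over all 14685 genes those covariates gave 1333 higher and 1728 lower against DMSO, where the fit without them gave 213 and 667. The all-gene numbers with them were 692 and 1041 against light alone, and 1255 and 1296 against probe alone.

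At 6 h no HOX gene was called in any of the 3 T-REX comparisons. The background, in either direction, was 0.218% of all genes for light alone, 0.109% for probe alone and 0.415% for DMSO. Unadjusted p-values of 0.05 or less were found for 5, 13 and 17 members in that order. Of all 14685 genes, 1711, 964 and 1826 had such a p. DESeq2 called 1, 1 and 2 members. Over all genes DESeq2 called 64 higher and 89 lower, then 23 and 34, then 104 and 184. Without light alone replicate 4, 2 members were called against light alone. With the factors of unwanted variation 5, 4 and 9 were called. Over all genes that fit called 465 higher and 737 lower against light alone. Against probe alone it called 75 and 182, and against DMSO 359 and 689. The median log2 difference over the members was -0.20 against DMSO, -0.17 against probe alone and -0.08 against light alone, with medians over all genes of 0.00, 0.01 and 0.01. Against DMSO 29 of 35 values were negative. Light alone was itself below DMSO at 6 h in 27 of 35 members, with a median log2 difference of -0.1471. In edgeR 9 of these 35 had an unadjusted p of 0.05 or less, and none was called. Of all 14685 genes, 7341 were below DMSO with light alone, and 2109 had such a p. With probe alone 18 of 35 members were below DMSO, with a median of -0.02069, and 1 had such a p.

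The members with the smallest p at 6 h are given with their values. Against DMSO these included HOXA5 at -0.28 (SE 0.070, edgeR adjusted p = 0.0727) and HOXB5 at -0.60 (SE 0.16, adjusted p = 0.101). Against probe alone HOXB3 stood at -0.31 (SE 0.069, adjusted p = 0.0846), HOXA5 at -0.23 (SE 0.070, adjusted p = 0.376) and HOXA9 at -0.23 (SE 0.070, adjusted p = 0.376). Against light alone HOXA13 stood at -0.41 (SE 0.0995, adjusted p = 0.0955), HOXA9 at -0.23 (SE 0.070, adjusted p = 0.178) and HOXA5 at -0.22 (SE 0.071, adjusted p = 0.237). HOXD13, called at 3 h, had a log2 difference of -0.04 (SE 0.090) against DMSO at 6 h.

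Most calls of the T-REX comparisons came at 12 h against DMSO. Lower under T-REX were 12 of 35 members, or 34.3%, and none was called higher. The background was 6.79% of all genes called lower in that comparison. Against light alone 1 of 35 was called lower, where the background was 0.790%, and against probe alone 2 of 35, where it was 0.504%. HOXA gave 6 of 11 members called against DMSO (among them HOXA5, HOXA9, HOXA10, HOXA11 and HOXA13), HOXB 4 of 9 (HOXB2, HOXB3, HOXB8 and HOXB9), HOXD 2 of 7 (HOXD11 and HOXD13) and HOXC 0 of 8. In HOXC, 3 of 8 had an unadjusted p of at most 0.05, as did 3957 of all 14685 genes. By number, 7 of 15 members from 9 to 13 and 5 of 20 from 1 to 8 were called. The smallest effect called was that of HOXB9, and members with few counts had wider errors, so a cluster with no call is not shown to differ from the others.

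The median log2 difference over the members at 12 h was -0.22 against DMSO, -0.15 against probe alone and -0.08 against light alone, with all-gene medians of 0.00 each. Against DMSO the medians were -0.32 in HOXA, -0.25 in HOXB, -0.16 in HOXC and -0.04 in HOXD. Summed over the 35 members, the level was 717 ± 27.3 CPM (SD, n = 4) under T-REX, 882 ± 48.2 with DMSO, 789 ± 21.3 with probe alone and 801 ± 15.01 with light alone. The T-REX sums, 677 to 738 CPM, lay below those of all controls at 12 h. No test was run on these sums.

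HOXA13 had 56.2, 62.1, 65.3 and 58.5 CPM in the T-REX libraries at 12 h. With light alone it had 79.8, 85.7, 84.2 and 71.9 CPM, with probe alone 71.1, 71.9, 68.8 and 65.5 CPM, and with DMSO 81.2, 94.9, 111 and 81.1 CPM. T-REX lay below all control libraries, closest to probe alone. The log2 fold change of HOXA13 was -0.61 (SE 0.084, edgeR adjusted p = 9.83e-05) against DMSO, -0.41 (SE 0.084, adjusted p = 0.00979) against light alone and -0.20 (SE 0.084) with an adjusted p of 0.370 against probe alone. The DMSO call held without any 1 library. The call of HOXA13 against light alone was lost without T-REX replicate 1 or light alone replicates 2 or 3 (adjusted p = 0.0549 to 0.0688).

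HOXA10 stood at 17.1, 19.9, 19.4 and 18.3 CPM under T-REX at 12 h. It was 22.2, 23.4, 22.8 and 22.9 CPM with light alone, 28.1, 24.4, 24.9 and 21.6 CPM with probe alone, and 28.02, 26.4, 26.4 and 24.3 CPM with DMSO. The T-REX libraries lay below all others. The log2 fold change of HOXA10 was -0.50 (SE 0.083, edgeR adjusted p = 0.000498) against DMSO, -0.41 (SE 0.083, adjusted p = 0.0138) against probe alone and -0.29 (SE 0.083) with an adjusted p of 0.0850 against light alone. Against DMSO the call held without any 1 library. Against probe alone it was lost without T-REX replicates 1 or 4 or probe alone replicates 1, 2 or 3 (adjusted p = 0.0533 to 0.0978). Without probe alone replicate 4, 4 members in place of 2 were called against probe alone at 12 h.

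HOXB3 was measured at 52.9, 52.2, 54.8 and 51.5 CPM under T-REX at 12 h, and at 56.5, 56.9, 55.3 and 54.8 CPM with light alone. With probe alone it was 65.2, 64.0, 58.6 and 65.9 CPM, and with DMSO 62.2, 56.6, 66.6 and 61.0 CPM. The T-REX and light alone ranges met near 54.8 CPM, while probe alone and DMSO lay above T-REX. The log2 fold change of HOXB3 was -0.27 (SE 0.059, edgeR adjusted p = 0.0254) against probe alone, -0.22 (SE 0.059, adjusted p = 0.0167) against DMSO and -0.08 (SE 0.059, adjusted p = 0.634) against light alone. The probe alone call was lost without T-REX replicates 1, 2 or 4 or probe alone replicates 1 or 2 (adjusted p = 0.0979 to 0.113). The DMSO call of HOXB3 was lost without T-REX replicate 4 (0.0507) and in the fit of the 2 arms (0.0953).

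HOXD13 was called at 12 h against DMSO only, with a log2 fold change of -0.48 (SE 0.082, edgeR adjusted p = 0.000874). It had 97.6, 115, 107 and 119 CPM under T-REX and 139, 140, 191 and 139 CPM with DMSO, so these arms did not overlap. The call held without any 1 library, DMSO replicate 3 included, and under every alternative run the log2 value was between -0.52 and -0.34. With probe alone HOXD13 stood at 104, 108, 103 and 103 CPM, within the T-REX range, and that difference was 0.07 (SE 0.082, adjusted p = 0.821).

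Among the low-numbered genes, HOXA5, a factor of lung development, differed from DMSO at 12 h by -0.37 (SE 0.069, edgeR adjusted p = 0.00148). HOXA5 had 35.8, 41.1, 38.3 and 39.6 CPM under T-REX and 49.5, 48.3, 56.5 and 45.3 CPM with DMSO. The groups did not overlap, and the call held without any 1 library. HOXB2 differed by -0.38 (SE 0.092, adjusted p = 0.00884) and HOXB8 by -0.54 (SE 0.16, adjusted p = 0.0293). HOXB8, at 3.37 to 5.11 CPM under T-REX and 5.36 to 6.08 CPM with DMSO, lost its call without DMSO replicate 2 or T-REX replicates 1, 2 or 4 (adjusted p = 0.0633 to 0.0981).

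Among the higher-numbered genes, HOXA9 differed from DMSO at 12 h by -0.32 (SE 0.090, edgeR adjusted p = 0.0242), HOXA11, a factor of kidney and limb, by -0.43 (SE 0.10, adjusted p = 0.00776), HOXB9 by -0.21 (SE 0.058, adjusted p = 0.0220) and HOXD11, a paralogue of HOXA11, by -0.35 (SE 0.11, adjusted p = 0.0349). HOXA9 lost its call without DMSO replicate 3 or T-REX replicates 1 or 3 (adjusted p = 0.0652 to 0.0778). HOXB9 lost it without T-REX replicate 1 (0.0833), and HOXD11 without DMSO replicates 1 or 3 or T-REX replicates 1, 3 or 4 (0.0603 to 0.105). HOXA11 and HOXB2 kept their calls without any 1 library and lost them when only the 2 arms were fitted (0.0612 and 0.0637). Without T-REX replicate 1, 8 members were called against DMSO in place of 12, and without DMSO replicate 3, 11 were. When only the T-REX and DMSO libraries were fitted, 5 were called.

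**Figure D1:**
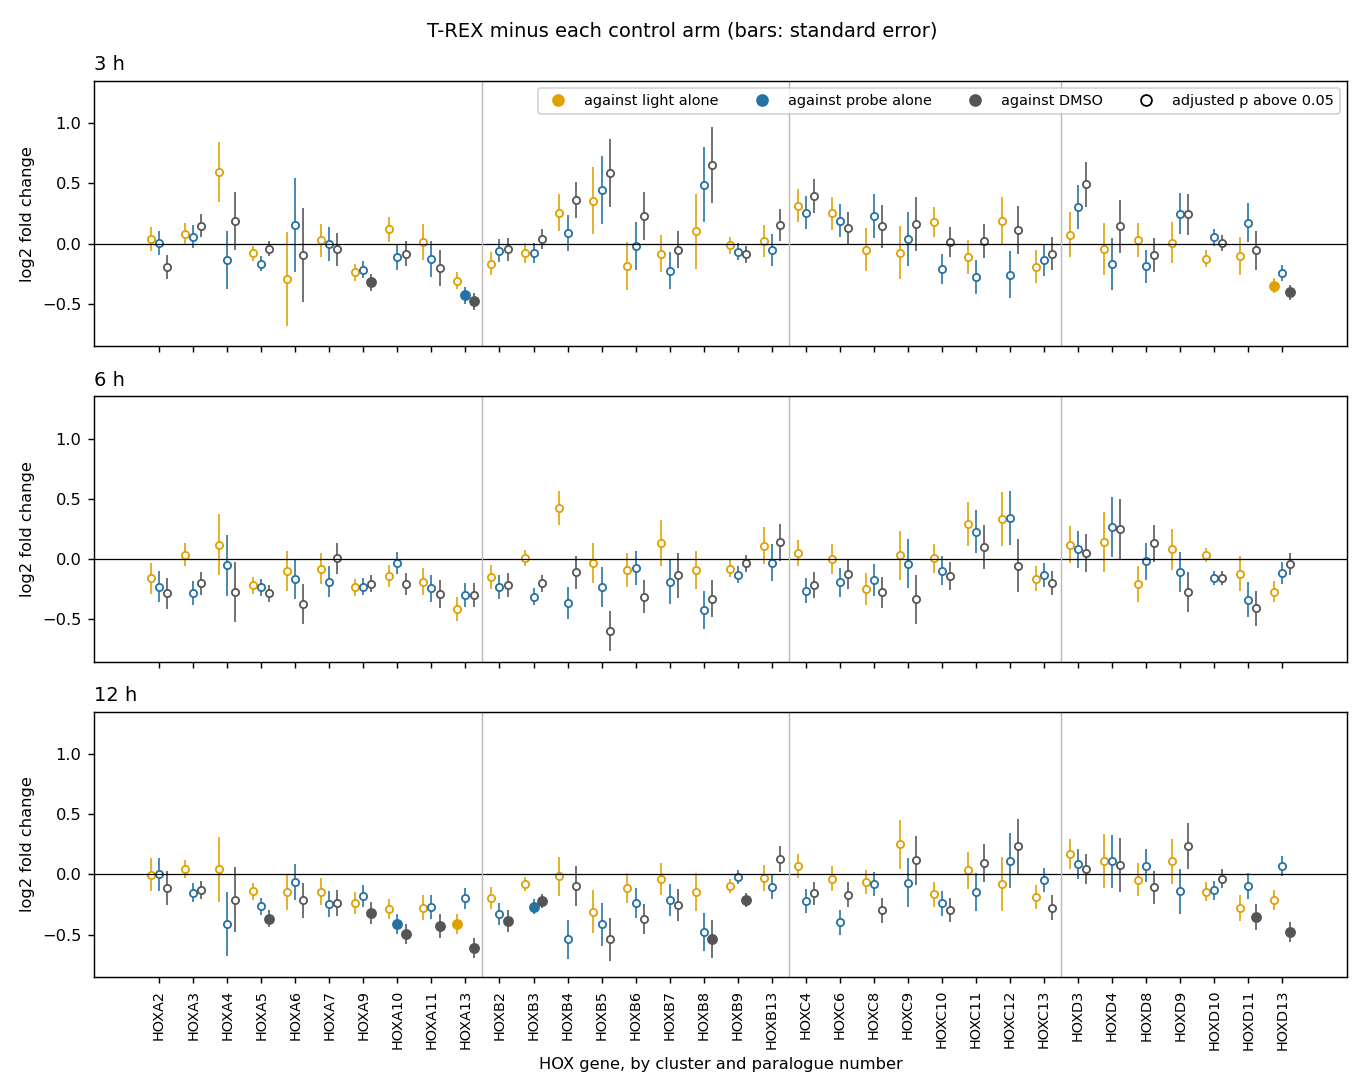
Points are log2 fold changes of T-REX minus light alone, probe alone or DMSO for the members shown at 3, 6 and 12 h, with standard errors as bars; filled points had an adjusted p of at most 0.05. All filled points lie below 0, there are none at 6 h, and most of them are against DMSO at 12 h.

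The controls were compared with each other in the same fits. At 3 h none of the 35 members was called in any of the 3 pairs of controls by edgeR, where 0.232% of all genes were called in at least 1 pair. Unadjusted p-values of 0.05 or less were found for 4 members between light alone and DMSO, 2 between probe alone and DMSO and 6 between light alone and probe alone, and DESeq2 called 0 in all. Of all 14685 genes, 1143, 751 and 2060 had such a p in that order. At 6 h 1 member was called, with a background of 0.0749%. This was HOXB4, with a log2 difference of -0.79 for light alone minus probe alone (SE 0.14, edgeR adjusted p = 0.0200). The HOXB4 call was lost without light alone replicates 2 or 3 or probe alone replicates 1 or 4 (adjusted p = 0.0502 to 0.157), and without probe alone replicate 2 there were 2 members called.

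At 12 h 2 members differed between controls, with a background of 5.26%. With probe alone HOXD13 was lower than with DMSO by -0.55 (SE 0.082, edgeR adjusted p = 0.00108) and HOXA13 by -0.41 (SE 0.084, adjusted p = 0.00843). Both genes were also called under T-REX against DMSO at 3 and 12 h, as was HOXA9. At 12 h both T-REX and probe alone were thus below DMSO in HOXA13 and HOXD13. Without DMSO replicate 3, 5 members were called between controls at 12 h, and without DMSO replicate 1, 4 were. Light alone and DMSO differed in 0 members by edgeR and 0 by DESeq2, while 12 had an unadjusted p of at most 0.05 and 30 of 35 values were negative, with a median of -0.13. Of all 14685 genes, 1525 had such a p and 7540 values were negative, with a median of -0.004.

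The members were also compared between times. Over the mean of the 4 arms, 21 of 35 members rose from 3 to 6 h and 27 of 35 rose from 3 to 12 h, and none fell. The background was 24.7% of all genes higher at 6 h and 33.1% higher at 12 h. The median log2 change of the members was 0.20 at 6 h and 0.30 at 12 h, and that of all genes was -0.01 at both times. From 3 to 12 h, 9 of 11 HOXA members rose, 7 of 9 in HOXB, 7 of 8 in HOXC and 4 of 7 in HOXD. Of the members numbered 9 to 13, 14 of 15 rose, and of those numbered 1 to 8, 13 of 20. Those not called included HOXA2, HOXB5, HOXB6, HOXC4, HOXD3, HOXD4 and HOXD9. All 7 HEK293T markers rose from 3 to 12 h as well, with a median of 0.30, and COL1A1 rose by 0.44 (SE 0.10, edgeR adjusted p = 0.000166), while NCBP1 fell by 0.44 (SE 0.071, adjusted p = 1.21e-06). Their part in the HOX values was not tested. Harvest time and any handling specific to a time cannot be told apart.

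The largest rises at 12 h were those of HOXC12, HOXA13 and HOXB9. HOXC12, the lowest member by level, changed by 0.61 (SE 0.11, edgeR adjusted p = 4.45e-06). HOXA13 changed by 0.59 (SE 0.045, adjusted p = 7.31e-16) and HOXB9 by 0.54 (SE 0.033, adjusted p = 1.06e-19). HOXA13 rose in each arm, by 0.72 with DMSO, 0.70 with light alone, 0.35 with probe alone and 0.59 under T-REX. HOXB9 rose by 0.62, 0.59, 0.44 and 0.51 in the same order.

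Within arms the counts were as follows. With DMSO 23 of 35 members rose from 3 to 12 h and 0 fell, with a background of 20.4% of all genes higher. Under T-REX 11 of 35 rose, with a background of 21.1%, and 2 fell, with a background of 20.6%. With light alone and with probe alone 15 of 35 rose and 0 fell, with backgrounds of 20.4% and 21.3%. The median log2 change was 0.43 with DMSO, 0.26 with probe alone, 0.24 with light alone and 0.16 under T-REX, so DMSO stood above all 3 other arms. These differences between arms were not tested. Those that fell under T-REX were HOXB5 at -0.58 (SE 0.21, edgeR adjusted p = 0.0256) and HOXC4 at -0.35 (SE 0.12, adjusted p = 0.0129). With DMSO HOXB5 changed by 0.54 (SE 0.21, adjusted p = 0.0408) and HOXC4 by 0.20 (SE 0.12, adjusted p = 0.183).

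HOXB5 had 4.03, 3.26, 7.61 and 7.58 CPM under T-REX at 3 h and 3.35, 4.04, 4.86 and 2.88 CPM at 12 h. With DMSO it had 3.18, 4.26, 4.77 and 2.81 CPM at 3 h and 5.75, 4.92, 6.31 and 4.89 CPM at 12 h. The T-REX groups overlapped and their 3 h values were spread by replicates 3 and 4. HOXC4 had 17.7, 15.2, 26.6 and 18.3 CPM at 3 h and 14.7, 15.3, 16.4 and 14.8 CPM at 12 h under T-REX, again with replicate 3 of 3 h far above. Without replicate 3 or replicate 4 the fall of HOXB5 was not called (adjusted p = 0.0856 to 0.405), nor was that of HOXC4 (0.0594 to 0.193). Without replicate 4, 8 members in place of 13 were called under T-REX.

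The difference between the times was tested directly, as T-REX minus the mean of the 3 controls at 12 h less the same at 3 h. No member was called by edgeR, where 0.116% of all genes were, and DESeq2 called 0. At an unadjusted p of at most 0.05 there were 7 members, and the number over all genes is not given here. The values with the smallest p were -0.87 for HOXB5 (SE 0.25, edgeR adjusted p = 0.114), -0.37 for HOXA10 (SE 0.11, adjusted p = 0.127) and -0.79 for HOXB8 (SE 0.25, adjusted p = 0.155). For HOXA13 the value was 0.01 (SE 0.10) and for HOXD13 0.13 (SE 0.098). The median over the members was -0.15 and over all genes -0.01, and 26 of 35 values were negative. A larger T-REX effect at 12 h than at 3 h was therefore not shown for any single member.

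Of the HOX partner genes, the 9 listed TALE cofactors were all in the tables, and 2 of them were called lower under T-REX at 12 h against probe alone and DMSO, where 0.504% and 6.79% of all genes were called lower. MEIS2, which binds DNA beside HOX proteins, was among them. MEIS2 stood at 43.5 to 47.6 CPM under T-REX, 56.1 to 62.2 with DMSO, 56.3 to 58.98 with probe alone and 47.1 to 51.9 with light alone. Its log2 fold change was -0.37 (SE 0.058, edgeR adjusted p = 0.000273) against DMSO and -0.35 (SE 0.058, adjusted p = 0.00257) against probe alone. Against light alone it was -0.14 (SE 0.058, adjusted p = 0.266).

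Of 27 Polycomb genes, 2 were higher and 5 lower under T-REX against DMSO at 12 h, and 4 were lower at 3 h. Over all genes 4.09% were called higher and 6.79% lower at 12 h, and 4.54% lower at 3 h. Those lower at 12 h included RNF2, the catalytic subunit of the PRC1 ubiquitin ligase, at -0.32 (SE 0.070, edgeR adjusted p = 0.00528) and BMI1, its partner, at -0.33 (SE 0.085, adjusted p = 0.0160). Both were lower than with DMSO at 3 h too, RNF2 by -0.29 and BMI1 by -0.45. The 2 genes higher at 12 h were CBX6 and PHC1. Against light alone 0 of the 27 genes were called at 3, 6 or 12 h. Against probe alone 0 were called at 3 and 6 h, and only JARID2 at 12 h, lower by -0.24 (SE 0.052, adjusted p = 0.0245). Probe alone was itself lower than DMSO at 12 h in 2 of the 27, where 495 of all 14685 genes were lower. Against DMSO the median of the list at 12 h was -0.09. Of 18 Trithorax and boundary genes, KMT2A, a methyltransferase that keeps HOX genes active, was higher against DMSO at 12 h by 0.17 (SE 0.047, adjusted p = 0.0201), and MLLT3, a reader of the elongation complexes, was lower by -0.32 (SE 0.055, adjusted p = 0.000634). Against light alone MLLT3 was lower by -0.22 (SE 0.055, adjusted p = 0.0389).

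Among 8 of 15 listed cluster activators in the tables, 1 was called under T-REX against any control at any time. RARB, a retinoic acid receptor that is itself a retinoic acid target, stood at 18.6 to 22.6 CPM under T-REX at 12 h, 37.97 to 49.7 with DMSO, 48.2 to 58.2 with probe alone and 25.4 to 27.2 with light alone. The arms with light were low and did not overlap those without. RARB differed by -1.02 (SE 0.086, edgeR adjusted p = 1.22e-07) from DMSO and by -1.28 (SE 0.086, adjusted p = 7.51e-10) from probe alone, and T-REX against light alone was -0.29 (SE 0.087, adjusted p = 0.105). Light alone was itself below DMSO, by -0.73 (SE 0.085, adjusted p = 8.26e-05) at 12 h and by -0.64 (SE 0.089, adjusted p = 0.00510) at 3 h, where no HOX member was called in that comparison, and at 6 h the value was -0.22 (adjusted p = 0.222) with overlapping ranges. Probe alone was above DMSO, by 0.54 (adjusted p = 0.0462) at 3 h and 0.60 (adjusted p = 0.000720) at 6 h, and at 12 h the value was 0.26 (adjusted p = 0.0624). RARB was also lower under T-REX at 3 h, by -0.41 against DMSO (adjusted p = 0.00944) and -0.96 against probe alone (5.64e-06), and at 6 h, by -0.56 (0.000721) and -1.16 (2.03e-09).

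Of 19 noncoding RNAs of the clusters, 12 were in the tables, and 2 of these were lower under T-REX against DMSO at 12 h, where 6.79% of all genes were. HOTTIP, transcribed beside HOXA13 on the other strand, had a log2 fold change of -0.73 (SE 0.21, edgeR adjusted p = 0.0233), and HOTAIRM1, another RNA of the HOXA cluster, of -0.49 (SE 0.15, adjusted p = 0.0296). Against probe alone HOXA-AS3 was lower by -0.50 (SE 0.11, adjusted p = 0.0192). HOXA13, the partner of HOTTIP on the coding strand, was called lower in the DMSO comparison as well, with the limit on strand given above. Of the 7 HEK293T markers, 2 were called lower in this comparison, 4 had positive values and the median was 0.02. IRS4 was lower under T-REX against DMSO at 12 h by -0.38 (SE 0.051, adjusted p = 6.45e-05) and CDH2 by -0.17 (SE 0.055, adjusted p = 0.0479). Against light alone IRS4 was lower by -0.30 (SE 0.051, adjusted p = 0.00138) at 12 h and by -0.34 (SE 0.058, adjusted p = 0.00614) at 6 h. Against probe alone it was 0.02 (adjusted p = 0.949) at 12 h and -0.02 (0.982) at 6 h, and probe alone was itself below DMSO by -0.39 (SE 0.051, adjusted p = 0.000369) at 12 h. The part of these shifts in the HOX values was not tested.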

How the data were processed

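RNA was measured in 48 libraries of HEK293T cells, 4 arms at 3 times with 4 replicates each. Per the study's methods, the authors depleted ribosomal RNA, made stranded libraries and read 150 bases from both ends. For RNA-seq over time, the study's reporting form names tophat, cutadapt and cufflinks. The tool that counted reads for these tables, its strand setting, the annotation and the build are not given in the sources used here. The deposited values are raw read counts per gene for 14685 genes. The deposited score columns, 2 factors of unwanted variation per library made by the authors, served as covariates in an alternative. Log2 CPM and factor-adjusted tables of the authors were not used.

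Groups came from the labels. Symbols, positions and exon lengths came from GENCODE 29 (14556 identifiers matched), and promoters from RefSeq (GRCh38.p14). Counts were tested with edgeR 4.0.16 (R 4.3.3; TMM factors, filterByExpr, which removed no gene, robust quasi-likelihood F test, two-sided) on 16 libraries per time, or all 48 for times, with Benjamini-Hochberg adjustment over all genes. Scripts were tested on simulated data. Alternatives were DESeq2 1.42.0, RLE factors, no filter, a mean of at least 100 counts, a replicate block, the 2 factors, only the 2 arms compared, and each library left out. Named were members called in any T-REX comparison, or the 3 with the smallest p where none was, the 2 highest and 2 lowest per cluster, the 3 largest changes with time, and partner genes called against 2 of 3 controls. Polycomb, Trithorax, noncoding and marker genes beyond these, and the within-arm changes, were picked with their values in view. Single values of some genes are not reported here, and the figures leave them out; counts and medians over lists include them. The members and lists were chosen with earlier results of these data known.

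The 72 replicate pairs all differed by more than counting noise (chi-square per degree of freedom 3.15 to 46.5). Replicates are described as independent biological samples. Member counts were 20 to 5116 per library, which limits precision for the lowest members.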

Additional observations from a re-analysis of the deposited data

Results flagged for a closer look

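Among the 12 members called in any T-REX comparison, 144 groups of 4 libraries were searched for a library far from the other 3, by Dixon's ratio of the gap to the range. This flagged 12, where chance flags about 1 in 20 groups. HOXD13 was at 191 CPM in DMSO replicate 3 at 12 h, with the next library at 140 CPM. HOXA10 was high in T-REX replicate 3 at 3 h (25.6 CPM, next 18.7). HOXD11 was high in replicate 4 at 6 h both under T-REX (12.1 CPM, next 9.97) and with probe alone (15.7 CPM, next 12.4), and HOXB2 in probe alone replicate 1 at 3 h (18.1 CPM, next 15.8). Low libraries were light alone replicate 1 at 3 h for HOXA5 (34.4 CPM, next 37.3) and HOXA10 (17.4 CPM, next 18.7), DMSO replicate 4 at 6 h for HOXA13 (58.4 CPM, next 61.4) and HOXB9 (60.8 CPM, next 74.0), DMSO replicate 4 at 12 h for HOXB8 (5.36 CPM, next 5.97), and at 12 h with probe alone replicate 4 for HOXA5 (43.6 CPM, next 46.9) and replicate 1 for HOXB8 (4.95 CPM, next 5.82). The test of the T-REX effect at 12 h less that at 3 h called no member.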

How the results depend on the processing

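Of the values recomputed under the alternatives, none changed sign; values near 0 that were not called, such as those of HOXD13 at 6 h, were not all recomputed. Counts of members called are given as light alone, probe alone and DMSO in turn, and were 1, 1 and 3 at 3 h, 0, 0 and 0 at 6 h and 1, 2 and 12 at 12 h. With the 2 factors of unwanted variation they were 5, 5 and 8, then 5, 4 and 9, then 5, 8 and 17, and members called between controls were 8, 7 and 9 at the 3 times in place of 0, 1 and 2. That fit called more of all genes too. Against DMSO it called 1333 higher and 1728 lower at 3 h, 359 and 689 at 6 h, and 1824 and 2101 at 12 h. The fit without the factors called 213 and 667, 26 and 35, and 601 and 997. For probe alone against DMSO at 12 h the factors gave 1523 higher and 1775 lower in place of 256 and 495. With DESeq2 the members called were 2, 2 and 3, then 1, 1 and 2, then 2, 5 and 17, and between controls 0, 2 and 5. Over all genes against DMSO, DESeq2 called 295 higher and 905 lower at 3 h, 104 and 184 at 6 h, and 809 and 1260 at 12 h. With only the 2 arms compared the members called were 0, 0 and 3, then 0, 2 and 2, then 4, 7 and 5. All-gene counts of these fits of 2 arms are not given here. RLE factors gave 2 against probe alone at 3 h. A mean of at least 100 counts changed no count by over 1.5 times. The run with no filter could not differ from the main fit, because filterByExpr removed no gene. The cause of these differences was not tested. With the replicate block, 1 member was called against light alone at 6 h, HOXD11 lost its call against DMSO at 12 h (adjusted p = 0.051) while the count there stayed at 12, the other T-REX and control counts were as above, and 21 and 28 members rose at 6 and 12 h. Same-numbered libraries of different arms correlated from -0.65 to 0.58 (median 0.00, 72 pairs), and 30 of these pairs were above 0.1. Differently numbered libraries had a median of 0.00 too. In 0 of 18 pairs of arms did every number exceed 0.1, so the numbers were not taken to pair the samples. Pairing within some arms or times is not excluded by this. With each library left out, counts ranged from 0 to 2, 1 to 2 and 3 to 4 at 3 h, 0 to 2, 0 to 0 and 0 to 0 at 6 h, 0 to 1, 0 to 4 and 8 to 15 at 12 h, and 0 to 0, 0 to 2 and 2 to 5 between controls. Without 1 replicate number, 16 to 25 members were called from 3 to 6 h, 23 to 27 from 3 to 12 h, 8 to 13 under T-REX, 17 to 18 with DMSO, and 0 in the difference of the T-REX effect. By CPM without length, HOXD13 and HOXB9 stayed first and second, HOXA13 moved from rank 7 to 3 and HOXC12 from 35 to 33.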

Other observations

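The noncoding RNAs of the clusters were followed over time as well. Over the mean of the 4 arms, 11 of the 12 in the tables rose from 3 to 12 h and 0 fell, where 33.1% of all genes rose, and their median log2 change was 0.46. HAGLR, transcribed antisense to HOXD1 and HOXD3, changed by 1.09 (SE 0.057, edgeR adjusted p = 3.26e-22). HOXC13-AS changed by 0.98 (SE 0.10, adjusted p = 1.08e-11), HOXB-AS1 by 0.95 (SE 0.10, adjusted p = 1.66e-11), HOXD-AS2 by 0.86 (SE 0.077, adjusted p = 6.55e-14) and HOTAIR, of the HOXC cluster, by 0.82 (SE 0.062, adjusted p = 2.82e-16). Of the TALE cofactors 6 of 9 rose over the same time, among them PBX3 by 0.47 (SE 0.031, adjusted p = 1.6e-18). Of the Trithorax and boundary genes 2 of 18 rose and 8 fell, where 4827 of all 14685 genes fell. The genes named here were picked with their values in view.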
